A study of Mus musculus with 9 samples.

Results

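The 34 cholesterol and fatty acid synthesis genes described here were taken by name from the deposited gene counts of T15 cells, a Smarcb1-negative murine peripheral T-cell lymphoma (PTCL) cell line. They comprise 18 enzymes of cholesterol synthesis, 5 genes of the SREBP control system, the sterol carrier Stard4, 6 enzymes of fatty acid synthesis and 4 genes of the LXR arm. They were chosen by their roles, with earlier results of these data known, and the rule used no measured value. All 34 were found among the 35288 listed genes, and 32 had enough counts to be tested. RNA was sequenced from 3 control, 3 SAHA-treated and 3 Smarcb1-RE libraries, all of T15 cells. SAHA (vorinostat), an inhibitor of histone deacetylases, was given at 1 µM over 72 h. At this concentration the study reports strong apoptosis of T15 cells, with most cells dead. Smarcb1-RE cells carried a lentiviral Smarcb1 cDNA in the doxycycline (Dox) inducible plasmid pInd20, were selected with G418 and received Dox at 0.5 µg/µl for 72 h. For re-expression the study reports reduced growth, with viability and cell cycle unaffected. The part of cell death and growth in the results was not tested. The label protocols mention vehicle-treated cells beside SAHA and a control plasmid beside the Smarcb1 plasmid. Whether the 3 control libraries were given either is not stated, and the study's text calls them untreated. Effects of transduction, selection and Dox can therefore not be told apart from those of Smarcb1. Several stable clones were established after selection, and which of them gave the libraries is not stated. The study calls the libraries of a group biological replicates, and the p-values set group differences against the spread between such libraries. Whether this spread includes that between clones is not known.

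Cells make cholesterol from acetyl-CoA by way of mevalonate, farnesyl diphosphate and squalene, and they make fatty acids from the same acetyl-CoA, which ATP citrate lyase supplies in the cytosol. Both routes are controlled by SREBP transcription factors (genes Srebf1 and Srebf2). When sterols are scarce, the escort protein Scap carries SREBP from the endoplasmic reticulum to the Golgi for cleavage, and when sterols are plentiful, the Insig proteins hold the complex back. The nuclear receptor LXR works on the opposite side: it senses oxysterols and activates the exporters Abca1 and Abcg1 and the ubiquitin ligase Mylip, which lowers lipoprotein uptake. Proliferating T-cells use these pathways to build membranes.

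The letters that SREBP is known to bind, TCACCCCA, were looked for in the promoters of the genes, on both strands, together with the looser TCACNCCA, which includes every match of the former. The letters CCAAT, bound by NF-Y, and GGGCGG, bound by Sp1 family factors, were searched in the same way, since these factors are known partners of SREBP. RefSeq promoter windows (GRCm38.p6, 300 bases, from 250 before to 50 after a RefSeq start, which can differ from the GENCODE start of the gene) were at hand for 27 of the 34 genes and were not at hand for Fdps, Fdft1, Sqle, Stard4, Scd1, Scd2 and Abcg1. A gene with several windows counted once if any of them held the letters. TCACCCCA was in a window of 2 of the 27 genes (7.41%), against 1.77% of all genes with a window and 1.61% of the tested ones. TCACNCCA was in 3 of them (11.1%, against 4.97% and 4.43%). The 3 genes were Hmgcs1, Srebf2 and Msmo1, and their sequences are shown 5′ to 3′ on the strand of the gene, as the only windows that held these letters, which stand in capitals. The stretches lie at chr13:119690194-119690293 (plus strand), chr15:82147081-82147180 (plus strand) and chr8:64733738-64733767 (minus strand). The capitals begin 137, 162 and 177 bases before the RefSeq start. The stretch of Msmo1 touches an exon of the longer GENCODE gene model, while those of Hmgcs1 and Srebf2 touch none.
Hmgcs1: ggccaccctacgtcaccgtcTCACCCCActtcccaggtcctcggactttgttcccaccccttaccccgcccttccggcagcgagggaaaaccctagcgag
Srebf2: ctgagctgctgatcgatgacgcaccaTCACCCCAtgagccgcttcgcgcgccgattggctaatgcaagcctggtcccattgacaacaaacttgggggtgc
Msmo1: gtctcactattcTCACTCCAtccgcgcagc

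CCAAT was the more widespread pattern. It was in a window of 14 of the 15 cholesterol enzymes that had one (93.3%), against 41.1% of all genes and 43.9% of the tested genes, and Acat2 was the exception. GGGCGG was also in 14 of the 15 (93.3%, against 38.2% and 67.3%), with Pmvk as the exception. These are counts of letters and not of bound sites. For 4 enzymes whose values are given library by library below, the 30 bases around the CCAAT nearest to the RefSeq start on its upstream side are shown, with the match in capitals (ATTGG is CCAAT on the other strand). They lie at chr5:114444239-114444268 (plus strand), chr13:8885576-8885605 (plus strand), chr5:4104709-4104738 (minus strand) and chr9:42264307-42264336 (minus strand), with the match beginning 14, 14, 29 and 24 bases before the RefSeq start. Those of Idi1 and Cyp51 touch an exon of the GENCODE annotation, in which these genes begin farther upstream.
Mvk: tagctccagctctctgATTGGcctcaggaa
Idi1: catggtccaaggtgccATTGGctggcgacc
Cyp51: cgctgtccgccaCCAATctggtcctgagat
Sc5d: cgccggctgctgATTGGccggctgcctgca

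Library totals ranged from 20900424 to 24941408 counts, and 3 counts, taken as the smallest detectable level, corresponded to between 0.123 and 0.133 CPM (counts scaled to a common library size), which covers counting error only. Levels below are CPM after TMM scaling, and fold changes come from edgeR's quasi-likelihood test with Benjamini-Hochberg adjustment over all 13697 tested genes. A gene was called higher or lower at an adjusted p-value under 0.05. Smarcb1 itself had 2, 5 and 8 counts in control, 7, 13 and 3 under SAHA, and 151, 147 and 142 in Smarcb1-RE (log2 fold change 4.89, standard error 0.36, adjusted p = 6.19e-08 against control). The T-cell genes Cd3d, Cd3e and Lck were at 228 CPM or more in every library, whereas Cd2 and Cd5 had at most 3 counts in any. Control replicate 1 stood apart from the other control libraries (chi-square per gene 12.5 and 14.1, against 2.07 to 4.55 for all other replicate pairs), so counts are also given without it. Mitochondrial transcripts made up 3.02 to 3.53% of counts in control, 3.37 to 3.76% in SAHA and 4.79 to 5.08% in Smarcb1-RE, and their part in the results was not tested. As this is bulk RNA, fewer cells of a type and less RNA per cell cannot be told apart.

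Most of these genes were slightly higher in SAHA than in control, and most were lower in Smarcb1-RE. In SAHA, 20 of the 32 tested genes were higher than in control (62.5%), where 32.6% of all tested genes were, and 5 were lower (15.6%, against 34.3% of all). In Smarcb1-RE, 3 were higher (9.38%, against 39.2%) and 27 were lower (84.4%, against 38.6%). The direct comparison of Smarcb1-RE with SAHA had 3 genes higher (9.38%, against 37.7%) and 27 lower (84.4%, against 36.8%). The median log2 fold changes of the 32 genes were 0.27, -0.58 and -0.76 in these comparisons, beside 0.00, 0.01 and 0.02 over all tested genes. Without control replicate 1, the counts were 20 higher and 7 lower in SAHA and 3 higher and 28 lower in Smarcb1-RE. The changes were mostly small: where calls also had to reach an absolute log2 fold change of 1, no gene was called in SAHA, and 1 was higher and 6 were lower in Smarcb1-RE. Both comparisons with control use the same control libraries. The plot of all log2 fold changes shows the 32 genes by role.

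**Figure D1:**
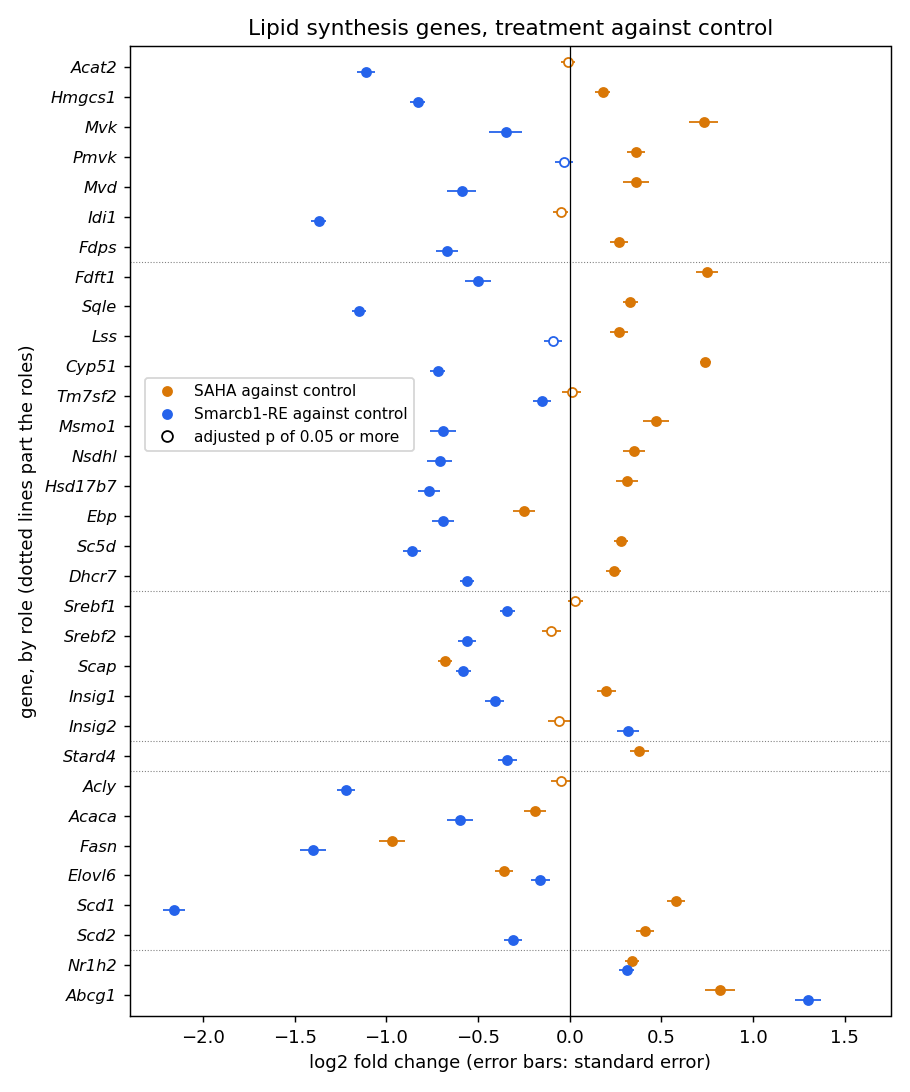
Log2 fold change of each of the 32 tested genes against control (x axis) in SAHA (orange) and Smarcb1-RE (blue), with genes ordered by role on the y axis, bars for the standard error and open circles for genes that were not called. Values ranged from -0.97 to 0.82 in SAHA and from -2.16 to 1.30 in Smarcb1-RE.

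Most of the 18 cholesterol enzymes were higher in SAHA, and most were lower in Smarcb1-RE. In SAHA, 14 were higher (77.8%, against 32.6% of all tested genes), 1 (Ebp) was lower (5.56%, against 34.3%) and 3 (Acat2, Idi1 and Tm7sf2) were not called. The median log2 fold change of the 18 was 0.29. In Smarcb1-RE, 16 were lower (88.9%, against 38.6%), none was higher (39.2% of all) and 2 (Pmvk and Lss) were not called. Their median there was -0.69 and the highest value -0.03 (Pmvk). With library totals in place of TMM scaling, which moved the median of all tested genes in Smarcb1-RE from 0.01 to 0.17, the median of the enzymes was -0.53, Pmvk was called higher (0.13) and Tm7sf2 was no longer lower (0.01). Against SAHA, all 18 enzymes were lower in Smarcb1-RE, with a median of -1.07, although Tm7sf2 was at 0.00 with library totals. The enzymes' CPM summed to 1726, 1660 and 1660 in the control libraries. The sums were 2106, 2101 and 2132 in SAHA, whereas Smarcb1-RE had 1030, 983 and 998. The 3 groups did not overlap in this sum. Within each library, the median log2 ratio of the 18 enzymes to the control mean lay between -0.03 and 0.04 in control, between 0.28 and 0.31 in SAHA and between -0.74 and -0.64 in Smarcb1-RE.

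**Figure D2:**
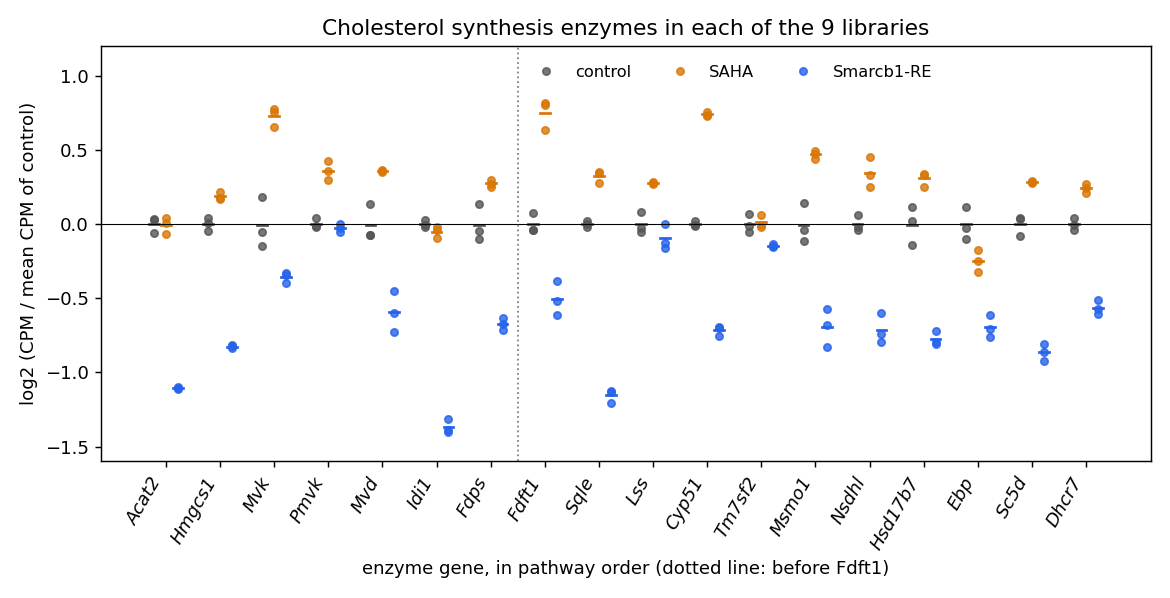
CPM of the 18 cholesterol synthesis enzymes in each of the 9 libraries, as the log2 ratio to the mean of the control libraries (y axis), in pathway order (x axis). Points are libraries and dashes the group means. The Smarcb1-RE points of Idi1, Sqle and Acat2 lie farthest below 0, and the SAHA points of Fdft1, Cyp51 and Mvk farthest above it.

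The steps from acetyl-CoA to farnesyl diphosphate are catalysed by 7 of these enzymes. In SAHA 5 were higher (71.4%, against 32.6% of all tested genes) and none lower (34.3% of all). In Smarcb1-RE 6 were lower (85.7%, against 38.6%) and none higher (39.2% of all). Mvk, mevalonate kinase (ENSMUSG00000041939, chromosome 5, 114444269 to 114460591, GENCODE M21 on GRCm38 as for all genes), was at 15.8, 13.4 and 12.6 CPM in control, 21.9, 23.8 and 23.5 under SAHA and 11.1, 10.6 and 11 in Smarcb1-RE. All SAHA libraries lay above and all Smarcb1-RE libraries below all control libraries. Its log2 fold change was 0.73 in SAHA (standard error 0.08, adjusted p = 4.38e-06), the largest of the 7, and -0.35 in Smarcb1-RE (0.09, 0.00215).

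Pmvk, phosphomevalonate kinase (ENSMUSG00000027952, chromosome 3, 89454541 to 89469013), acts right after Mvk and had a different pattern. It was at 34.1, 32.7 and 32.9 CPM in control, 42.5, 44.7 and 40.8 under SAHA and 33.3, 32.6 and 32.0 in Smarcb1-RE. It was 1.28-fold higher in SAHA (adjusted p = 2.42e-05), with no overlap, whereas the Smarcb1-RE libraries overlapped those of control (log2 fold change -0.03, standard error 0.05, adjusted p = 0.641).

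Idi1, the isomerase of the isoprene units (ENSMUSG00000058258, chromosome 13, 8885501 to 8892451), and Acat2, the cytosolic thiolase of the entry step (ENSMUSG00000023832, chromosome 17, 12942890 to 12960747), were the most strongly lowered of the 7 in Smarcb1-RE. Idi1 was at 148, 143 and 144 CPM in control, 143, 136 and 141 under SAHA and 58.2, 55.5 and 55.0 in Smarcb1-RE. It was 2.58-fold lower in Smarcb1-RE (log2 fold change -1.37, standard error 0.04, adjusted p = 2.21e-11) and not called in SAHA (-0.05, adjusted p = 0.234). Acat2 was at 82.5, 87.6 and 88.2 CPM in control, 88.6, 82.2 and 86.4 under SAHA and 40.1, 39.8 and 40.2 in Smarcb1-RE, so that control and SAHA overlapped and Smarcb1-RE lay far below both. The change of Acat2 in Smarcb1-RE was 2.15-fold (log2 fold change -1.11, standard error 0.05, adjusted p = 3.11e-10). Reads could be shared with its paralog Acat3, to which 1 to 9 counts per library were assigned, so the value of Acat2 is uncertain to that extent.

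The other 3 enzymes of these steps followed the majority. Hmgcs1, HMG-CoA synthase, had mean levels of 147 ± 4.77 CPM in control, 167 ± 3.37 in SAHA and 82.9 ± 0.629 in Smarcb1-RE (SD, n = 3 each), with log2 fold changes of 0.18 and -0.83. Mvd, the mevalonate diphosphate decarboxylase, had log2 fold changes of 0.36 and -0.59. Fdps, farnesyl diphosphate synthase, went from 315 ± 27.2 CPM to 381 ± 5.8 and 197 ± 5.73 (0.27 and -0.67). All 6 of these changes were called.

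From squalene to cholesterol, 9 of 11 enzymes were higher (81.8%, against 32.6% of all tested genes) and 1 lower (9.09%, against 34.3%) in SAHA. In Smarcb1-RE 10 were lower (90.9%, against 38.6%) and none higher (39.2% of all). Fdft1, squalene synthase (ENSMUSG00000021273, chromosome 14, 63145150 to 63179578), commits farnesyl diphosphate to sterols. It was at 51.4, 47.6 and 47.6 CPM in control, 75.9, 85.1 and 86.0 under SAHA and 37.4, 32.0 and 34.1 in Smarcb1-RE, with no overlap between the groups. The log2 fold changes were 0.75 in SAHA (standard error 0.06, adjusted p = 4.5e-07) and -0.50 in Smarcb1-RE (0.07, 1.72e-05).

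Cyp51, the lanosterol demethylase (ENSMUSG00000001467, chromosome 5, 4081145 to 4104746), had a similarly large rise in SAHA. Its levels were 249, 245 and 244 CPM in control, 409, 407 and 415 under SAHA and 151, 152 and 146 in Smarcb1-RE. The groups were far apart relative to the spread within them. Cyp51 was 1.67-fold higher in SAHA (adjusted p = 5.05e-09) and 1.64-fold lower in Smarcb1-RE (adjusted p = 1.68e-09), and the direct comparison gave a 2.74-fold difference (log2 fold change -1.45, standard error 0.04, adjusted p = 4.9e-12).

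Sqle, squalene epoxidase and a known rate-limiting enzyme of the later steps (ENSMUSG00000022351, chromosome 15, 59315077 to 59331192), was at 150, 152 and 154 CPM in control, 184, 193 and 194 under SAHA and 69.5, 69.8 and 65.9 in Smarcb1-RE. It was the most strongly lowered of the 11 in Smarcb1-RE, at 2.22-fold (log2 fold change -1.15, standard error 0.04, adjusted p = 9.38e-11), and rose 1.26-fold in SAHA (0.33, 0.04, 8.66e-06). Sc5d, a sterol desaturase near the end of the pathway (ENSMUSG00000032018, chromosome 9, 42251595 to 42264256), was at 75.4, 69.4 and 75.1 CPM in control, 89.4, 89.2 and 88.6 under SAHA and 41.9, 40.4 and 38.7 in Smarcb1-RE. It thus kept the same order of groups, without overlap (log2 fold changes 0.28 and -0.86, adjusted p = 0.000114 and 3.78e-09).

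Of the remaining sterol enzymes, the methylsterol monooxygenase Msmo1 (log2 fold changes 0.47 in SAHA and -0.69 in Smarcb1-RE), the demethylation enzymes Nsdhl (0.35 and -0.71) and Hsd17b7 (0.31 and -0.77) and the reductase of the last step, Dhcr7 (0.24 and -0.56), were called in both comparisons. Lss, lanosterol synthase, was higher in SAHA (0.27) and not called in Smarcb1-RE (-0.09, standard error 0.05, adjusted p = 0.12), but was called lower without control replicate 1 (-0.13) or without Smarcb1-RE replicate 1 (-0.16). Ebp, a sterol isomerase, was the only cholesterol enzyme lower in both: its CPM was 59.3, 51.0 and 53.8 in control, 43.7, 46.1 and 48.4 under SAHA and 33.5, 32.2 and 35.8 in Smarcb1-RE. Every SAHA library of Ebp lay below every control library (log2 fold change -0.25, standard error 0.06, adjusted p = 0.00352), and the Smarcb1-RE libraries lay lower still (-0.69, 0.06, 5.46e-07). The sterol reductase Tm7sf2 had log2 fold changes of 0.01 in SAHA (adjusted p = 0.851) and -0.15 in Smarcb1-RE (adjusted p = 0.0113). The latter call was lost with library totals (0.01) and with a filter of 10 counts in every library (-0.09).

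Of the 5 genes of the SREBP system, 1 was higher (Insig1, 20%) and 1 lower (Scap, 20%) in SAHA, against 32.6% and 34.3% of all tested genes. In Smarcb1-RE 1 was higher (Insig2, 20%) and 4 were lower (80%), against 39.2% and 38.6% of all. The median log2 fold changes of the 5 genes were -0.06 and -0.41. Srebf2, whose protein mainly drives cholesterol synthesis (ENSMUSG00000022463, chromosome 15, 82147181 to 82205379), was at 941, 1085 and 1087 CPM in control, 937, 973 and 986 under SAHA and 709, 697 and 710 in Smarcb1-RE. Control replicate 1 lay among the SAHA libraries, and the Smarcb1-RE libraries lay below all others. Srebf2 was 1.47-fold lower in Smarcb1-RE (log2 fold change -0.56, standard error 0.05, adjusted p = 6.81e-07) and was not called in SAHA (-0.10, 0.05, 0.1), except without control replicate 1 (-0.17). Srebf1, whose protein mainly drives fatty acid synthesis (ENSMUSG00000020538, chromosome 11, 60199089 to 60222581), was at 219, 214 and 219 CPM in control, 225, 215 and 226 under SAHA and 172, 171 and 173 in Smarcb1-RE. It was 1.26-fold lower in Smarcb1-RE (adjusted p = 2.27e-06), while control and SAHA overlapped (log2 fold change 0.03, standard error 0.04, adjusted p = 0.487). The counts are per gene and do not tell the isoforms of Srebf1 apart.

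Scap, the escort protein (ENSMUSG00000032485, chromosome 9, 110333288 to 110384950), was lower in both treatments. It was at 116, 124 and 119 CPM in control, 77.7, 73.0 and 74.2 under SAHA and 80.4, 81.5 and 78.5 in Smarcb1-RE. Neither treatment overlapped control, with log2 fold changes of -0.68 in SAHA (standard error 0.04, adjusted p = 3.41e-08) and -0.58 in Smarcb1-RE (0.04, 4.97e-08). The difference between the treatments missed the threshold (0.10, standard error 0.04, adjusted p = 0.0587), and was called in 4 of the alternatives, up to 0.25 with library totals.

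The Insig genes moved in opposite directions in Smarcb1-RE. Insig1, which is itself a known SREBP target (ENSMUSG00000045294, chromosome 5, 28071363 to 28078662), was at 85.4, 96.5 and 95.5 CPM in control, 108, 104 and 106 under SAHA and 72.2, 65.7 and 70.8 in Smarcb1-RE. It followed the order of the enzymes, with log2 fold changes of 0.20 in SAHA (standard error 0.05, adjusted p = 0.0047) and -0.41 in Smarcb1-RE (0.05, 1.4e-05). Insig2 was at 28.6, 31.4 and 28.2 CPM in control, 28.5, 28.7 and 27.2 under SAHA and 35.2, 38.1 and 37.0 in Smarcb1-RE. It was higher in Smarcb1-RE (0.32, standard error 0.06, adjusted p = 0.000151) and not called in SAHA (-0.06, adjusted p = 0.337). Stard4, a carrier that moves cholesterol between membranes (ENSMUSG00000024378, chromosome 18, 33199355 to 33213862), was at 127, 146 and 139 CPM in control, 179, 176 and 181 under SAHA and 111, 107 and 108 in Smarcb1-RE. The groups were in the order of most enzymes, with log2 fold changes of 0.38 (adjusted p = 1.56e-05) and -0.34 (adjusted p = 3.72e-05).

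The 6 fatty acid synthesis enzymes were all lower in Smarcb1-RE, with a median log2 fold change of -0.91, while Elovl6 was not called with library totals (-0.00) or with a filter of 10 counts in every library (-0.10). In SAHA the 6 enzymes were split, with a median of -0.12. There 2 were higher (33.3%, near the 32.6% of all tested genes), 3 lower (50%, against 34.3%) and 1 not called. The desaturases were the higher ones. Scd1, a stearoyl-CoA desaturase that makes monounsaturated fatty acids (ENSMUSG00000037071, chromosome 19, 44394455 to 44407879), had the largest change of all 32 genes in Smarcb1-RE. It was at 261, 297 and 302 CPM in control, 437, 421 and 430 under SAHA and 66.0, 63.9 and 62.8 in Smarcb1-RE. It rose 1.5-fold in SAHA (log2 fold change 0.58, standard error 0.05, adjusted p = 8.1e-07) and was 4.47-fold lower in Smarcb1-RE (-2.16, 0.06, 1.01e-11), so that the treatments differed 6.68-fold (-2.74, 0.06, 1.55e-12).

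Scd2, its neighbour and paralog (ENSMUSG00000025203, chromosome 19, 44293674 to 44306864), was at 1280, 1417 and 1462 CPM in control, 1854, 1848 and 1835 under SAHA and 1168, 1082 and 1117 in Smarcb1-RE. The order of the groups was that of Scd1, but the fall in Smarcb1-RE was 1.24-fold (log2 fold change -0.31, standard error 0.05, adjusted p = 0.000102). The rise of Scd2 in SAHA was 1.33-fold (adjusted p = 1.07e-05). The coding sequences of the Scd genes are alike, and how reads were divided between them is not known here, so both values are uncertain.

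Fasn, the fatty acid synthase (ENSMUSG00000025153, chromosome 11, 120805846 to 120824547), was lower in both treatments. It was at 501, 581 and 616 CPM in control, 315, 269 and 284 under SAHA and 215, 212 and 216 in Smarcb1-RE, with no overlap. The log2 fold changes were -0.97 in SAHA (standard error 0.07, adjusted p = 1.56e-07) and -1.40 in Smarcb1-RE (0.07, 2.49e-09), and the treatments differed as well (-0.43, 0.07, 0.000136). Acly, ATP citrate lyase, was at 266, 297 and 280 CPM in control, 268, 270 and 275 under SAHA and 126, 117 and 120 in Smarcb1-RE. It fell 2.32-fold in Smarcb1-RE (log2 fold change -1.22, standard error 0.05, adjusted p = 1.94e-10) and was not called in SAHA (-0.05, adjusted p = 0.325), except without control replicate 1 (-0.09).

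Acaca, an acetyl-CoA carboxylase that makes malonyl-CoA, was at 170, 201 and 206 CPM in control, 177, 160 and 169 under SAHA and 123, 129 and 128 in Smarcb1-RE. The control and SAHA libraries overlapped, and the call in SAHA (-0.19, standard error 0.06, adjusted p = 0.0199) was lost without control replicate 2 (-0.16), control replicate 3 (-0.14) or SAHA replicate 2 (-0.16) and in a fit to the pair of groups alone (-0.18). In Smarcb1-RE it was lower without overlap (-0.60, adjusted p = 2.45e-06). The other acetyl-CoA carboxylase gene, Acacb, which is not among the 34, was at 74.2 CPM in control, 52 in SAHA and 109 in Smarcb1-RE (means). It was lower in SAHA (log2 fold change -0.51, adjusted p = 8.77e-07) and higher in Smarcb1-RE (0.56, adjusted p = 1.32e-07). The elongase Elovl6 was at 37.9 ± 0.895 CPM in control, 29.5 ± 1.44 in SAHA and 34 ± 1.36 in Smarcb1-RE (SD, n = 3 each). It was the only one of the 6 fatty acid synthesis enzymes higher in Smarcb1-RE than in SAHA (log2 fold change 0.20, standard error 0.05, adjusted p = 0.00347).

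**Figure D3:**
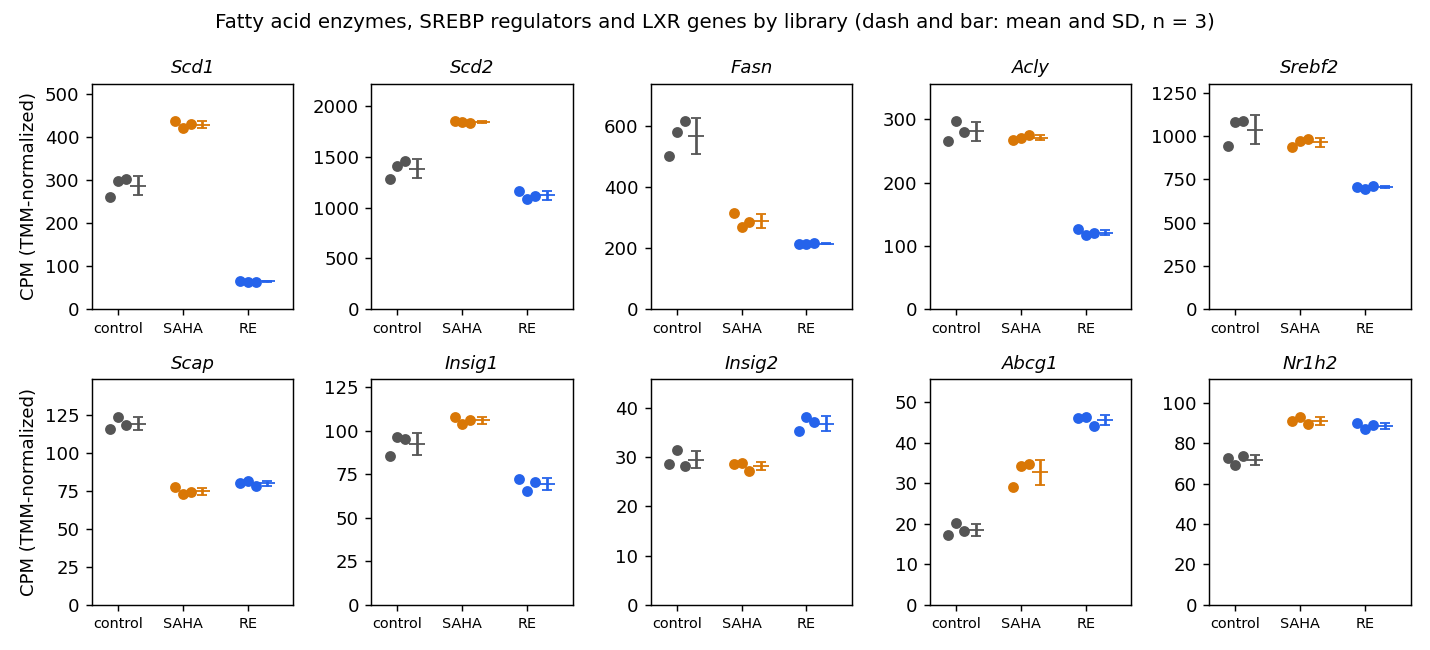
TMM-normalized CPM (y axis, from 0) of 10 fatty acid, SREBP and LXR genes in the 3 libraries of each group, with the mean and SD beside the points (RE: Smarcb1-RE). Scd1 lies between 62.8 and 66.0 CPM in Smarcb1-RE, under the 261 CPM of the lowest control library, while Abcg1 lies highest in Smarcb1-RE.

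In the LXR arm, both tested genes were higher in both treatments, where 32.6% (SAHA) and 39.2% (Smarcb1-RE) of all tested genes were. Abcg1, which exports cholesterol to lipoproteins (ENSMUSG00000024030, chromosome 17, 31057675 to 31117988), was at 17.2, 20.1 and 18.3 CPM in control, 29.2, 34.3 and 34.7 under SAHA and 46.2, 46.4 and 44.1 in Smarcb1-RE. The 3 groups did not overlap. The log2 fold changes were 0.82 in SAHA (standard error 0.08, adjusted p = 1e-06), the largest rise of the 32 genes there, and 1.30 in Smarcb1-RE (0.07, 5.37e-09), and the treatments differed by 0.48 (0.07, 4.04e-05). Nr1h2, which encodes LXRβ (ENSMUSG00000060601, chromosome 7, 44549616 to 44553951), was at 72.4, 69.1 and 73.5 CPM in control, 90.7, 92.9 and 89.3 under SAHA and 89.8, 87.1 and 88.7 in Smarcb1-RE. Both treatments lay above control, by 1.27-fold (adjusted p = 7.5e-06) and 1.24-fold (adjusted p = 1.41e-05), and overlapped each other (log2 fold change -0.04, standard error 0.04, adjusted p = 0.389), although the sign turned and the difference was called with library totals (0.12).

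Abca1 and Mylip were hardly detected. Abca1 had 2, 3 and 10 counts in control, 5, 7 and 9 under SAHA and 3, 0 and 3 in Smarcb1-RE, and Mylip had at most 3 counts in any library. Both were left out by the filter on low counts, so differences in them were not tested, and none is read from counts this low.

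Per kilobase of annotated exon, Scd2 (254 CPM per kb in control), Srebf2 (144) and Fdps (74.8) had the highest levels of the tested genes in control, and Lss (4.42) and Abcg1 (2.54) the lowest. In SAHA the Fasn level fell from 51.7 to 26.4 CPM per kb while that of Cyp51 rose from 55.7 to 93.0. In Smarcb1-RE, Scd1 fell from 58.6 to 13.1 CPM per kb, and Abcg1 (6.24) stood above Lss (4.15). These lengths cover all annotated exons of a gene, so levels of genes with long unused exons are too low.

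Other genes of lipid metabolism were read from the same fit, in lists compiled from general knowledge. Their shares of called genes stand beside those of all tested genes, which were 32.6% higher and 34.3% lower in SAHA and 39.2% higher and 38.6% lower in Smarcb1-RE. Among 13 genes of the isoprenoid branches, which use farnesyl diphosphate for protein prenylation, dolichol and ubiquinone, 2 were higher (15.4%) and 10 lower (76.9%) in SAHA, and none was higher and 10 were lower (76.9%) in Smarcb1-RE. The median log2 fold changes were -0.49 and -0.31, so that in SAHA this branch and the sterol enzymes had medians of opposite sign. The 2 higher in SAHA, Ggps1 (0.51) and Nus1 (0.10), were lower in Smarcb1-RE (-0.26 and -0.63), in the directions of most sterol enzymes. The genes named from here on are the called ones with the largest changes in either comparison and an average log2 CPM of at least 1. Less abundant genes with larger changes, such as Elovl7 and Gpat3, are thus not described. The log2 fold changes are given in SAHA and then in Smarcb1-RE. Srd5a3, a reductase of dolichol synthesis, was at -1.02 and -0.11, the latter not called (adjusted p = 0.0572). The farnesyltransferase subunit Fntb was lower in both (-0.92 and -0.44), as were Pdss1 (-0.74 and -0.88) and Pdss2 (-0.49 and -0.77), the subunits that make the ubiquinone side chain.

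Fatty acid supply, elongation and desaturation had 21 tested genes, of which 10 were higher (47.6%) and 8 lower (38.1%) in SAHA and 7 were higher (33.3%) and 12 lower (57.1%) in Smarcb1-RE. The share lower in SAHA was near that of all genes (34.3%), as was the share higher in Smarcb1-RE (39.2%). Acss2, which makes acetyl-CoA from acetate and so bypasses Acly, was higher in both, at 2.05 ± 0.244 CPM in control, 9.97 ± 1.21 under SAHA and 8.13 ± 0.485 in Smarcb1-RE (SD, n = 3 each, log2 fold changes 2.27 and 1.98). The acyl-CoA synthetase Acsl5 was lower in both (-1.19 and -1.23). The elongation enzyme Hsd17b12 was not called in SAHA (-0.03, adjusted p = 0.496) and was lower in Smarcb1-RE (-1.31). Of 17 genes of SREBP processing and sterol-regulated degradation, 5 were higher (29.4%) and 8 lower (47.1%) in SAHA and 4 were higher (23.5%) and 6 lower (35.3%) in Smarcb1-RE. The share higher in SAHA and the share lower in Smarcb1-RE were near those of all genes (32.6% and 38.6%). Rnf145, a ubiquitin ligase known to act on Scap, was lower in both (-0.77 and -1.32), as was Erlin1 (-0.74 and -0.16). Fbxw7, which marks nuclear SREBP for degradation, was higher in SAHA (0.37) and lower in Smarcb1-RE (-0.81).

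Cholesterol uptake, transport and storage had 11 of 23 genes higher (47.8%) and 7 lower (30.4%) in SAHA and 11 higher (47.8%) and 8 lower (34.8%) in Smarcb1-RE. The lower shares were near those of all genes (34.3% and 38.6%). Soat2, which esterifies cholesterol for storage, was at 10.1 ± 1.53 CPM in control, 14.4 ± 0.708 under SAHA and 61.3 ± 0.216 in Smarcb1-RE (SD, n = 3 each), and was higher in both (log2 fold changes 0.51 and 2.60). Tmem97, a sterol-responsive membrane protein, was lower in both (-0.40 and -1.62), and the cholesterol hydroxylase Cyp46a1 was higher in both (1.7 and 1.14, standard error 0.22 each). Cyp46a1 was scarce, with means of 1.02 CPM in control, 3.32 under SAHA and 2.25 in Smarcb1-RE. The lipoprotein receptor Lrp8 was higher in SAHA (1.21) and lower in Smarcb1-RE (-0.94). Of the 8 tested LXR partners and targets, 3 were higher (37.5%) and 2 lower (25%) in SAHA and 4 were higher (50%) and 1 lower (12.5%) in Smarcb1-RE. The coactivator Ncoa1 was higher in both (0.47 and 1.48), and the phospholipid remodelling enzyme Lpcat3, an LXR target, was higher in SAHA (0.51) and lower in Smarcb1-RE (-0.62).

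Triacylglycerol and phospholipid synthesis had 10 of 22 genes higher (45.5%) and 7 lower (31.8%) in SAHA and 6 higher (27.3%) and 11 lower (50%) in Smarcb1-RE, against 34.3% of all genes lower in SAHA. The choline phosphotransferase Chpt1 (log2 fold changes 1.47 and 1.43), the triacylglycerol synthase Dgat1 (0.86 and 1.10) and choline kinase Chka (0.70 and 1.47) were higher in both. Chpt1 was scarce, at a mean of 1.37 CPM in control. Fatty acid oxidation, the opposing pathway, had 9 of 23 genes higher (39.1%) and 8 lower (34.8%) in SAHA, near the shares of all genes (32.6% and 34.3%). In Smarcb1-RE 5 were higher (21.7%) and 11 lower (47.8%). Cpt1a, which admits fatty acids to mitochondria, was higher in both (1.47 and 1.41), and Eci1 was lower in both (-0.80 and -0.52). Ehhadh, also scarce at a mean of 1.42 CPM in control, was not called in SAHA (0.18, adjusted p = 0.468) and was higher in Smarcb1-RE (1.12). The bar plot of called genes sets these lists beside the shares among all tested genes.

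**Figure D4:**
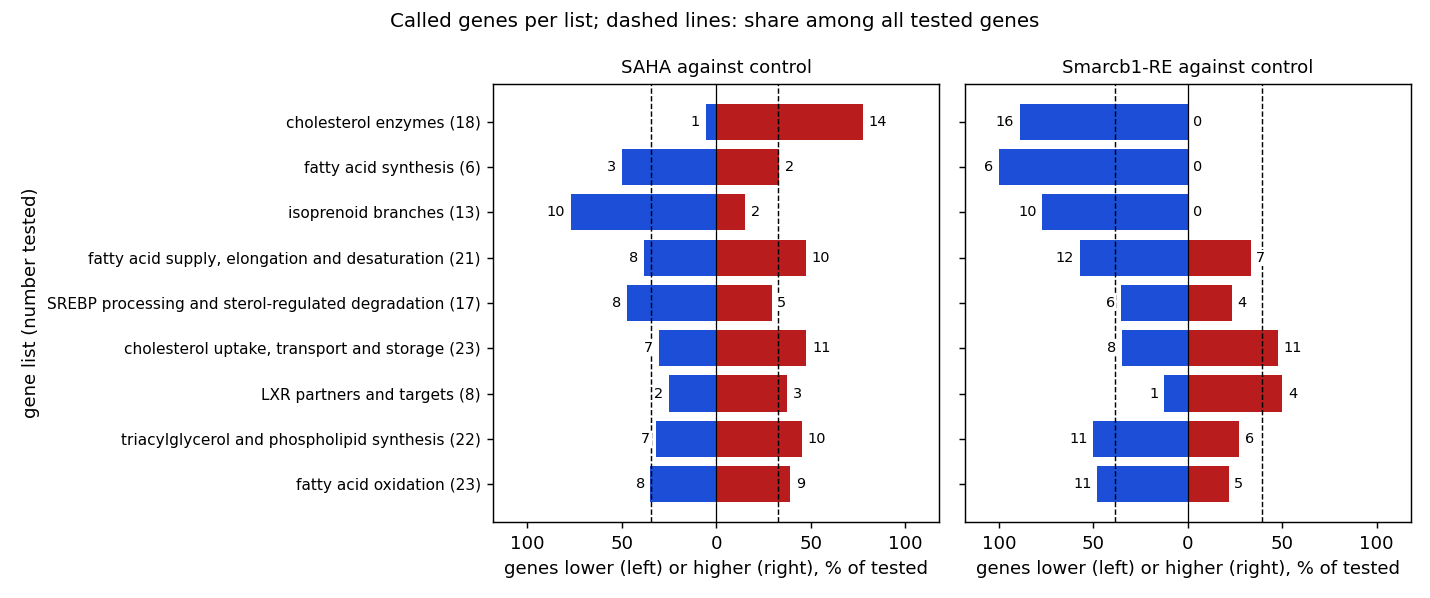
Share of the tested genes of 9 lists called higher (red, to the right) or lower (blue, to the left) against control, in SAHA and Smarcb1-RE, with the number of genes at each bar and dashed lines at the share among all 13697 tested genes. Of the 9 lists drawn, the cholesterol enzymes reach farthest to the higher side in SAHA, with 14 of 18, and the fatty acid synthesis enzymes reach farthest to the lower side in Smarcb1-RE, with 6 of 6.

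Genes of other cell types also differed between the groups. The 8 B-cell markers summed to between 93.2 and 96.7 CPM in control, 104 and 114 under SAHA and 156 and 165 in Smarcb1-RE, nearly all of it Ebf1. Only 5 of the 8 passed the filter on low counts, which keeps a gene with enough counts in a single group. A marker low in control was thus tested only if a treatment raised it, so these shares are partly set by the filter. Of the 5 tested, 3 were higher in SAHA (60%, against 32.6% of all tested genes) and 5 in Smarcb1-RE (100%, against 39.2%). None was lower in either, and the median log2 fold changes were 0.66 and 1.72. The 9 fibroblast and endothelial markers summed to between 155 and 161, 113 and 128, and 195 and 199 CPM, where Pdgfra rose from 7.57 ± 1.38 in control to 67.1 ± 1.16 CPM in Smarcb1-RE (SD, n = 3). Only 3 of these 9 passed the filter, and the same limit applies to their shares. Of the 3 tested, 1 was higher (33.3%, against 32.6% of all) and 2 lower (66.7%, against 34.3%) in SAHA. Their log2 fold changes ranged from -0.42 to 3.34. In Smarcb1-RE 2 were higher (66.7%, against 39.2%) and 1 lower (33.3%, against 38.6%), at -0.21 to 3.15. The 11 macrophage and neutrophil markers summed to between 2.11 and 2.67 CPM in control, 5.98 and 7.49 under SAHA and 1.90 and 2.03 in Smarcb1-RE, and Csf1r had at most 1 count. Most of the sum was Cd68, at 1.69 ± 0.255 CPM in control, 6.75 ± 0.894 under SAHA and 1.65 ± 0.0743 in Smarcb1-RE (SD, n = 3 each), while Itgam had 12, 8 and 11 counts in control, 0, 1 and 1 under SAHA and 2, 2 and 3 in Smarcb1-RE, and Lyz2 had 4, 2 and 2, then 0 in every SAHA library, and 2, 0 and 0. The part of these cell types in the results was not tested.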

How the data were processed

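The authors deposited one table of estimated counts per Ensembl gene for the 9 libraries, without normalization or pooling. The submitters' processing notes name Salmon 0.14.1, DESeq2 1.22.2, FastQC 0.11.8, MultiQC 1.7 and GRCm38, without saying what each did. Libraries were made with a directional kit. In the table, 52.4% of values above 0 were not whole, and they were rounded. Gene names and coordinates came from GENCODE M21 (GRCm38), which held 99.5% of the identifiers. Library totals ranged from 20900424 to 24941408, so that 3 counts corresponded to at most 0.133 CPM.

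Counts were analysed in R 4.3.3 with edgeR 4.0.16 (TMM, filterByExpr with a minimum count of 10, glmQLFit, glmQLFTest, Benjamini-Hochberg adjustment), in a single fit to the 3 groups without a replicate block. The common biological coefficient of variation was 5.24%. The standard error of a log2 fold change was derived from its size and the F statistic (size over root F). The calculations were tested on simulated data. The gene lists and the 34 genes were chosen with earlier results of these data known. Values per library are given for the 2 called genes with the largest change per role and comparison with control, for Srebf1, Srebf2, Insig1, Scd1 and Scd2, and for Ebp, Insig2, Acly, Acaca and Abca1, which were added after their values were seen. From each other list, the 2 called genes with the largest change per comparison and an average log2 CPM of at least 1 are named. Acacb, Ggps1 and Nus1 were added after their values were seen. The alternatives were DESeq2 1.42.0, RLE factors, library totals, other count filters, a replicate block, separate fits, stricter thresholds and leaving out each library. Samples were grouped by the treatment label.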

Additional observations from a re-analysis of the deposited data

How the results depend on the processing

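Of 1536 log2 fold changes of the 32 genes under the 16 alternatives with a fit, 1517 kept their direction and their side of the threshold, where a change of sign counted only if the gene was called on either side. 8 were newly called, 7 lost their call and 4 were reversed. The 4 arose with library totals, which moved the median of all genes in Smarcb1-RE to 0.17 against control and 0.18 against SAHA and the higher share of calls from 50.4 to 61.0% and from 50.6 to 62.1%: Pmvk (0.13) and Tm7sf2 (0.01) against control, and Tm7sf2 (0.00) and Nr1h2 (0.12) against SAHA. The median of the enzymes in Smarcb1-RE was then -0.53, and 5 genes were higher than in SAHA. When calls also needed an absolute log2 fold change of at least 1, 0 genes were higher and 0 lower in SAHA, 1 and 6 in Smarcb1-RE, and 0 and 13 in Smarcb1-RE against SAHA. An adjusted p-value under 0.01 gave 4 lower genes in SAHA and 25 in Smarcb1-RE.

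With each library left out in turn, from 20 to 20 genes were higher and 4 to 7 lower in SAHA, 3 to 3 higher and 27 to 28 lower in Smarcb1-RE, and 3 to 4 higher and 27 to 27 lower in Smarcb1-RE against SAHA. The median of the cholesterol enzymes was 0.28 to 0.32 in SAHA and -0.73 to -0.63 in Smarcb1-RE, the last without control replicate 1. The replicate numbers recur in every group, but libraries with the same number did not deviate together (correlations -0.0717 to 0.0366). With the replicate block, 20 genes were higher and 5 lower in SAHA, 3 and 27 in Smarcb1-RE and 3 and 27 in Smarcb1-RE against SAHA, with enzyme medians of 0.30 and -0.69. DESeq2 gave the same counts, with medians of 0.30 and -0.70. Abca1 and Mylip had too few counts to be tested. The cause of these shifts was not tested.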
